A study of Homo sapiens with 9 samples.

Results

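Long noncoding RNAs are transcripts with no long reading frame, and the genes of small nucleolar RNA (snoRNA) hosts, named SNHG, are a class of them. A host is spliced, the snoRNAs are cut out of its introns and guide the chemical modification of ribosomal RNA in the nucleolus, and the spliced RNA that is left is often short-lived. Genes named LINC are intergenic transcripts, and genes whose names end in -AS1 lie antisense to, or start beside, a partner gene. MALAT1 and NEAT1 stay in the nucleus, where MALAT1 collects in nuclear speckles and NEAT1 is the scaffold of paraspeckles. GAS5 hosts snoRNAs and is a classical growth arrest transcript, DANCR hosts a snoRNA, MEG3 is an imprinted gene expressed from the maternal chromosome, and PVT1 neighbours the MYC gene.

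The genes described here are the 181 of 13784 genes tested that were chosen by symbol and selected on a mean raw count of at least 50 over all 9 libraries. The symbols were those of the form LINC or SNHG with a number, those ending in -AS1, and 10 single names. They matched 1789 of the 26475 rows of the table, 715 of which had no count in any library, and a further 251 were tested but lay under the mean. The 181 were 17 SNHG genes, 43 LINC genes, 115 -AS1 genes and 6 of the single names, namely MALAT1, NEAT1, MEG3, GAS5, DANCR and PVT1. H19, HOTAIR and HOTAIRM1 stayed outside with mean counts of 3.65, 8 and 1. CYTOR had no row under that symbol but was among the LINC genes under its older name LINC00152. The last genes inside the limit were LINC00342, ATP6V0E2-AS1 and SNAI3-AS1 with mean counts of 50.1, 50.5 and 50.6, and the first outside were SDCBP2-AS1, LINC01061 and DPP9-AS1 with 49.4, 48.5 and 47. Every one of the 181 passed the filter on low counts. Of these, 152 reached a mean of 50 in each condition, while 9 did so in a single condition, among them CD27-AS1, PSMB8-AS1 and H1FX-AS1 through Soft. Their median mean count was 134, against 527 over the genes tested.

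RNA was sequenced from hTERT_RPE1 cells, a human retinal pigment epithelial line immortalised with telomerase. Control was transduced with the empty pLKO vector, as the sample titles give it (a further label calls it a control shRNA), and seeded on fibronectin-coated glass. In sh_PIP4K2B the lipid kinase PIP4K2B was silenced with 3 different hairpins, 1 library each, on the same glass. Soft carried the empty vector and was seeded on a fibronectin-coated 2.3 kPa hydrogel, and every library was taken after 24 h. There were 3 libraries a condition, so the spread in sh_PIP4K2B is between hairpins as well as between cultures, and nothing in the labels says whether the other replicates were separate cultures. Library totals ran from 19217336 to 24020796 estimated counts, so that 3 counts, taken as the floor, were 0.131 to 0.148 CPM (counts scaled to a common library size). In bulk RNA, fewer cells that express a gene and less of its RNA per cell cannot be told apart. PIP4K2B itself was at 123, 124 and 120 CPM in Control, at 48.4, 40.9 and 36.6 CPM in sh_PIP4K2B and at 119, 122 and 127 CPM in Soft. Of the retinal pigment epithelium markers, RPE65, TYR and TTR had at most 1 count in a library, and RLBP1, BEST1, SERPINF1 and PMEL were at most 0.524, 0.775, 0.912 and 0.939 CPM, while MITF and OTX2 were present. The epithelial keratins KRT8 and KRT18 were present too. PTPRC, EPCAM, MYOG and SOX10, which mark other cell types, were at most 0.524 CPM, and PECAM1 was at 4.34 to 5.33 CPM in Soft and at most 0.346 CPM elsewhere.

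Symbols in the table are partly old ones. Of the 181, 141 had their symbol in GENCODE 44, 35 were matched through an older symbol and 5 were not matched. LRRC75A-AS1 is now SNHG29, LINC00657 is NORAD and LINC01279 was matched to CCDC80. RefSeq gives the matched symbols of 9 of the 181 as protein coding, CCDC80 among them. HNRNPU-AS1, also among the 9, was matched to HNRNPU. HNRNPU has its own row at 527 to 558 CPM in Control, against a mean of 3.95 CPM for HNRNPU-AS1, so that match is doubtful. GENCODE placed snoRNA or small Cajal body RNA genes on the same strand inside 22 of the 181, which included all 17 SNHG genes, DANCR, EPB41L4A-AS1, LINC00888, LRRC75A-AS1 and UBA6-AS1. SNHG1 held 7 such gene entries, namely SNORD25 to SNORD28, SNORD30 and SNORD22, the last entered more than once. SNHG12 held 5 entries, with SNORA16A entered more than once. SNHG17 held 5 of the SNORA71 family, SNHG16 held SNORD1A, SNORD1B and SNORD1C, and SNHG4 held SNORA74A and SNORA74D. GENCODE lists none inside GAS5, where RefSeq places 11, SNORD44, SNORD47 and SNORD74 to SNORD81 among them. The snoRNAs themselves were not measured, since of 411 snoRNA and scaRNA rows 1 was tested and the highest mean count was 8.89, so the values below are of the host transcripts.

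Transcripts that host snoRNAs are known to often begin with a C followed by a run of pyrimidines, the 5′ terminal oligopyrimidine (TOP) tract that ties translation of a message to growth signals. The 40 bases around the start are therefore shown for the 4 SNHG genes past the threshold in Soft that have an entry in the RefSeq promoter table, and for 4 others that open with C and 4 more C or T. Capitals mark the longest run of C and T that touches the 10 bases on either side of the start, and the transcript begins at base 21. Positions are in GRCh38.p14.
SNHG1, chr11:62855866-62855905, minus strand: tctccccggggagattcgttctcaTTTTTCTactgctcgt
SNHG3, chr1:28505923-28505962, plus strand: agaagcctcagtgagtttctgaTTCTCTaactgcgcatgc
SNHG4, chr5:139274081-139274120, plus strand: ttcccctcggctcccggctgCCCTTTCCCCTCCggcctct
SNHG16, chr17:76557744-76557783, plus strand: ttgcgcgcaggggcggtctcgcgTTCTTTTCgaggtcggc
SNHG5, chr6:85678714-85678753, minus strand: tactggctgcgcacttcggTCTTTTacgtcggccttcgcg
SNHG12, chr1:28581854-28581893, minus strand: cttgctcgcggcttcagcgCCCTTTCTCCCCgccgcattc
SNHG18, chr5:9546180-9546219, plus strand: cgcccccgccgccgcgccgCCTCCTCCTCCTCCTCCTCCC
SNHG19, chr16:2155339-2155378, minus strand: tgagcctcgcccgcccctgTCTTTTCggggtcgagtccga
Of the 22 hosts, 18 had an entry. A run of at least 8 C and T at the start was present in 6 of these (33.3%), against 15% of all 27305 promoters, and 5 (27.8%) opened with C and 4 more C or T, against 4.04%. The E-box CACGTG, read on both strands from 250 bases before to 50 after the start, was present in SNHG7 alone (5.56%), against 7.43% of all. The 5 that opened with C and pyrimidines were SNHG4, which fell in Soft, and SNHG5, SNHG12, SNHG18 and SNHG19, which did not pass the threshold there. These are matches of letters at annotated starts, and starts in these cells were not measured.

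The study asked what PIP4K2B knockdown and a soft substrate each do to the transcriptome. In sh_PIP4K2B, 3 of the 181 genes passed the threshold. EPB41L4A-AS1, a transcript that hosts SNORA13, was higher, while TMPO-AS1 and EMC3-AS1 were lower. These 3 were 1.66% of the 181, read against 5.54% of all genes tested in either direction, 2.76% higher and 2.77% lower (edgeR quasi-likelihood test, adjusted p below 0.01 here and throughout). On soft gels, 20 were higher and 22 lower, 23.2% in all, read against 30.6% of all genes tested, 15.8% higher and 14.8% lower. Of the 20 higher ones, CD27-AS1, PSMB8-AS1, H1FX-AS1 and DLGAP1-AS1 reached the mean count of 50 through Soft alone, and without all 9 single-condition genes 16 were higher and 22 lower of 172. Comparing Soft with sh_PIP4K2B directly, 19 were higher and 23 lower, again 23.2%, read against 30.0% of all genes, 14.5% higher and 15.5% lower, and without the 9 genes 15 were higher and 23 lower. Each share of the 181 was under that of all genes, whose counts were higher. The median log2 fold change of the 181 was 0.04 in sh_PIP4K2B, -0.04 in Soft and -0.02 between them, and that of all genes was 0.05, 0.01 and -0.03.

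**Figure D1:**
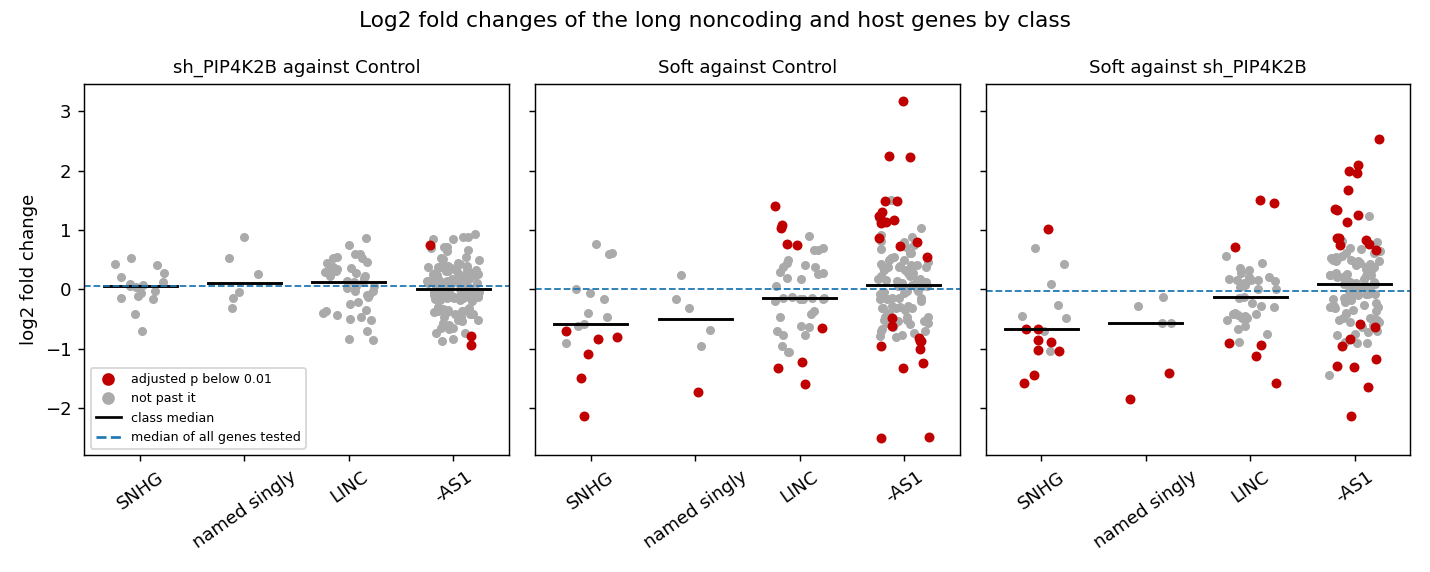
Log2 fold change (vertical axis) of each of the 181 genes by class (horizontal axis) in the 3 comparisons, with red points past the threshold, a black line at the class median and a dashed line at the median of all genes tested. In Soft the SNHG median sits at -0.59, while the 3 red points in sh_PIP4K2B are -AS1 genes.

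EMC3-AS1 passed the threshold in both comparisons against Control, 2 genes passed in sh_PIP4K2B alone and 41 in Soft alone, and both comparisons share the Control libraries. Of the 42 genes past it in Soft against Control, 31 also passed in Soft against sh_PIP4K2B in the same direction, and 11 did not. Those comparisons share the Soft libraries. The same overlaps were not counted over all genes, of which 5.54% passed in sh_PIP4K2B, 30.6% in Soft and 30.0% in Soft against sh_PIP4K2B. The spread differed by condition. The median SD of log2 CPM over the 181 genes was 0.11 in Control, 0.35 in sh_PIP4K2B and 0.097 in Soft, and the fit pools them. In a fit of Control and Soft alone, 115 of the 181 passed (63.5%, against 70.7% of the genes tested in that fit), and in a fit of Control and sh_PIP4K2B alone none did by edgeR, against 0.0375% of the genes in that fit. In sh_PIP4K2B, 47 of the 181 had an unadjusted p under 0.05, where 33.2% of all genes tested did, and DESeq2 called 7 (3.87%), where it called 15.0% of all genes.

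On the gel, the SNHG genes were the name class with the lowest median. Of the 17 SNHG genes, 6 were lower in Soft and none was higher, and the class median was -0.59. At an unadjusted p under 0.05, 11 were lower and 3 higher, where 26.6% of all genes tested were lower and 27.7% higher. DESeq2 called 8 lower and 1 higher, where it called 19.7% of all genes lower and 19.8% higher. In the reported fit SNHG19, SNHG11, SNHG18 and, at 0.01, SNHG10 lay above 0. In sh_PIP4K2B none passed the threshold by edgeR or by DESeq2, 2 had an unadjusted p under 0.05, and the median was 0.05. Compared with sh_PIP4K2B, Soft had 8 of the 17 lower and SNHG18 higher, with a median of -0.67.

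SNHG4, the host of SNORA74A on chromosome 5 (139274102 to 139284899, plus strand), changed most of the class. It was at 4.89, 4.83 and 4.72 CPM in Control, at 2.21, 3.66 and 3.02 CPM in sh_PIP4K2B, and at 0.958, 1.05 and 1.25 CPM in Soft. The 3 conditions did not overlap, with the Soft libraries lowest. The fold change in Soft was 4.41-fold lower (log2 -2.14 ± 0.23 SE, adjusted p = 1.1e-04), while in sh_PIP4K2B it was -0.70 ± 0.21 (adjusted p = 0.051). Soft was also below sh_PIP4K2B (log2 -1.44 ± 0.23, adjusted p = 1.0e-03).

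SNHG15, the host of SNORA9 on chromosome 7, was at 15.5, 16.1 and 13.1 CPM in Control and at 12.8, 17.5 and 17.4 CPM in sh_PIP4K2B. In Soft it was at 5.2, 5.9 and 4.83 CPM, below every other library. It fell 2.81-fold on the gel (log2 -1.49 ± 0.17 SE, adjusted p = 1.3e-04), with 0.09 ± 0.16 in sh_PIP4K2B (adjusted p = 0.73).

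SNHG1, which carries a cluster of C/D box snoRNAs on chromosome 11 (62851978 to 62855953, minus strand), was at 55.6, 56 and 54.1 CPM in Control, at 48.3, 59 and 51.6 CPM in sh_PIP4K2B and at 24.9, 27.4 and 25.7 CPM in Soft. The sh_PIP4K2B libraries lay on both sides of Control, and the Soft libraries were 2.13-fold lower (log2 -1.09 ± 0.11 SE, adjusted p = 6.6e-05). SNHG3, the host of SNORA73A and SNORA73B, was at 37.9, 38.8 and 37.8 CPM in Control and at 21.3, 20.6 and 22.4 CPM in Soft (log2 -0.83 ± 0.10, adjusted p = 2.3e-04). It was at 30.7, 35.9 and 35.2 CPM in sh_PIP4K2B, each below Control, but this difference did not pass the threshold (adjusted p = 0.28).

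SNHG16, the host of the SNORD1 snoRNAs on chromosome 17, was at 78.2, 75.1 and 76.9 CPM in Control and at 44.8, 46 and 40.7 CPM in Soft (log2 -0.81 ± 0.19 SE, adjusted p = 0.0066). Its hairpin libraries were at 59.6, 106 and 70.9 CPM, on both sides of Control. SNHG6, the host of SNORD87, was at 36.8, 39.5 and 43.8 CPM in Control and at 24.8, 23.9 and 25.2 CPM in Soft (log2 -0.70 ± 0.12, adjusted p = 0.0014). Of the length of its canonical transcript 81.7% is overlapped on the opposite strand, with MCMDC2 sharing most. The counting is not stated to use strand, so reads of the 2 genes cannot be told apart there.

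The other 11 SNHG genes did not pass the threshold in Soft. SNHG12 (-0.91), SNHG17 (-0.61), SNHG8 (-0.59), SNHG20 (-0.47) and SNHG7 (-0.40) had log2 fold changes below 0 with adjusted p-values of 0.026 to 0.064, and SNHG5, SNHG9 and SNHG10 had values between -0.17 and 0.01. SNHG17 and SNHG20 were lower in Soft than in sh_PIP4K2B (log2 -1.02 and -0.89, adjusted p = 0.0078 and 0.0037). Values above 0 were those of SNHG19 (0.77, adjusted p = 0.031), SNHG11 (0.62, 0.016) and SNHG18 (0.60, 0.048). SNHG18, the host of SNORD123, was at 24, 25.9 and 23.8 CPM in Control, at 11.2, 21.9 and 21.9 CPM in sh_PIP4K2B and at 35.9, 39 and 36.7 CPM in Soft. Its Soft libraries were the highest, and they were 2.03-fold above sh_PIP4K2B (log2 1.02 ± 0.22 SE, adjusted p = 0.0049). Shared sequence is a limit for part of the class, since 54.1% of the 75-base stretches of SNHG5, 38.5% of SNHG8, 35.8% of SNHG7 and 33% of SNHG20 also occur in another annotated gene on either strand.

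**Figure D2:**
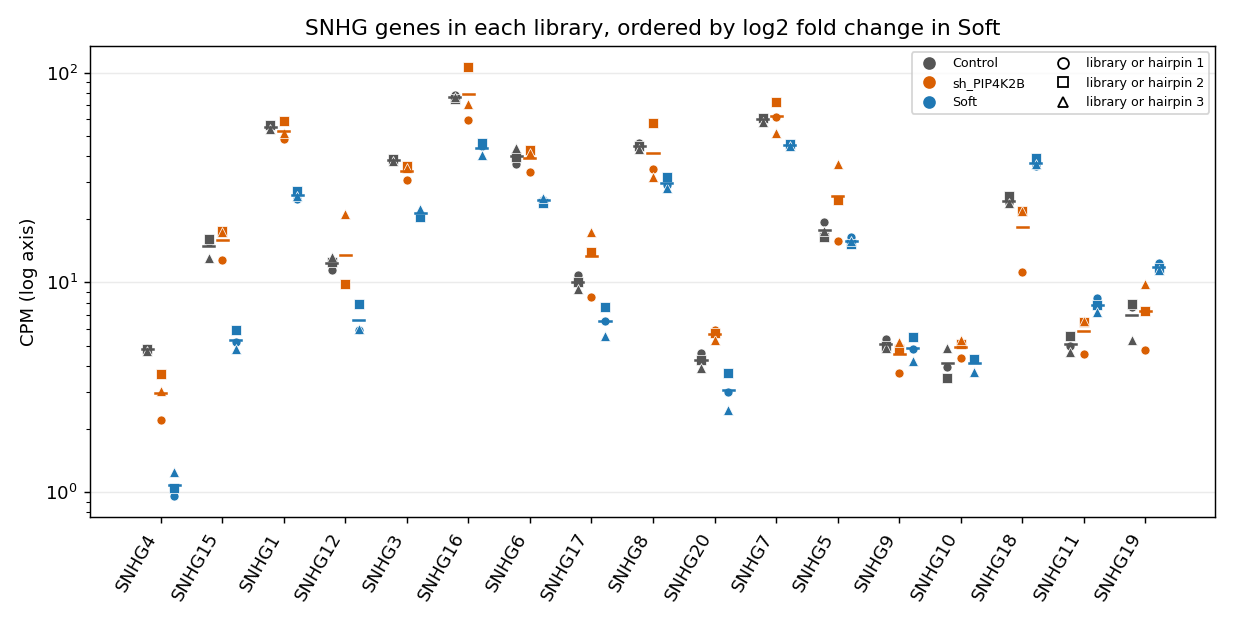
CPM on a log axis (vertical) of the 17 SNHG genes (horizontal axis, ordered by log2 fold change in Soft) in each of the 9 libraries, with colours for conditions, symbols for libraries or hairpins and a line at the condition mean. The Soft points of SNHG4, SNHG15, SNHG1, SNHG3, SNHG16 and SNHG6 lie below all Control points, and those of SNHG18, SNHG11 and SNHG19 lie above. Those of SNHG12, SNHG17, SNHG7 and SNHG20, which did not pass the threshold, also lie below. The share of all genes tested with such a separation is not given.

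Over the 22 genes with an annotated snoRNA inside, 7 were lower and 0 higher in Soft, with a median of -0.44, and at an unadjusted p under 0.05, 12 were lower and 4 higher. UBA6-AS1, the host of an SNORA62 copy, was the 7th, at 10.9, 11.5 and 11.7 CPM in Control and at 7.43, 7.05 and 7.69 CPM in Soft (log2 -0.62 ± 0.14 SE, adjusted p = 0.0053). The 159 without one in GENCODE on the same strand, GAS5 (0.25) among them, had 20 higher and 15 lower and a median of 0.05. Among 227 protein-coding genes with a snoRNA inside, 21 were higher and 50 lower in Soft with a median of -0.11, and among 11 further long noncoding genes with a snoRNA inside, 1 was higher and 0 lower by edgeR, with 3 higher and 0 lower at an unadjusted p under 0.05 and a median of 0.32. Among all 428 other long noncoding genes tested, 50 were higher and 31 lower with a median of 0.17. Of all genes tested, 15.8% were higher and 14.8% lower in Soft. The class of 22 and the lists set beside it were chosen after results were seen and are given as description.

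The most abundant transcript per length, of the 176 with a known length, was a host for which no comparison passed the threshold. LRRC75A-AS1, now SNHG29 and host of SNORD49A, SNORD49B and SNORD65, had a mean level of 944 CPM per kb of canonical transcript in Control, above LINC00674 (297), MEG3 (212), SNHG16 (154) and GAS5 (89.8). It was at 416, 409 and 430 CPM in Control, at 290, 607 and 238 CPM in sh_PIP4K2B and at 415, 398 and 400 CPM in Soft. Control and Soft overlapped, and neither comparison passed the threshold (adjusted p = 0.76 in sh_PIP4K2B and 0.90 in Soft). The level per kb divides the CPM of a gene by the length of 1 canonical transcript, 443 nt for LRRC75A-AS1 and 160 nt for LINC00674. A short length raises it. Without that division the mean in Control was 418 CPM for LRRC75A-AS1, 406 CPM for LINC00657, 319 CPM for NEAT1 and 47.5 CPM for LINC00674. These genes were named after their levels were seen.

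GAS5 was at 67.4, 72.2 and 67.3 CPM in Control, at 50.3, 139 and 109 CPM in sh_PIP4K2B and at 77.3, 88.3 and 80.8 CPM in Soft. Its hairpin libraries lay on both sides of Control and its Soft libraries lay above, and neither difference passed the threshold (log2 0.53 ± 0.29 SE, adjusted p = 0.23, and 0.25 ± 0.29, adjusted p = 0.50). In the edgeR fit of Control and Soft alone the adjusted p of GAS5 was 5.8e-04. Without hairpin 1 the value in sh_PIP4K2B was 0.85 with an adjusted p of 0.0015. DANCR, which is linked to an undifferentiated state of progenitor cells, was at 35.3, 31.4 and 29.9 CPM in Control and at 31.5, 27.4 and 27.1 CPM in Soft, and hairpins 1 to 3 gave 13.5, 35.9 and 44.9 CPM. Neither comparison passed the threshold for DANCR (adjusted p = 0.95 and 0.71).

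MALAT1, on chromosome 11 (65497640 to 65508073, plus strand), fell in Soft by more than its spread. It was at 130, 164 and 185 CPM in Control, at 151, 113 and 121 CPM in sh_PIP4K2B and at 43.2, 53 and 49 CPM in Soft. The hairpin libraries overlapped Control, whereas every Soft library lay below all 6 others. The fold change in Soft was 3.30-fold lower (log2 -1.72 ± 0.17 SE, adjusted p = 6.4e-05), that in sh_PIP4K2B was -0.32 ± 0.16 (adjusted p = 0.20), and Soft against sh_PIP4K2B was -1.40 ± 0.16 (adjusted p = 2.0e-04). Of its transcript 83.7% is overlapped on the opposite strand, with the antisense gene TALAM1 sharing most, and the 2 cannot be told apart if strand was not used in counting. MALAT1 RNA lacks a usual poly(A) tail, and the libraries were made with an mRNA kit, whose part in its values was not tested.

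NEAT1, its neighbour on chromosome 11, was at 287, 336 and 335 CPM in Control, at 498, 168 and 205 CPM in sh_PIP4K2B and at 190, 205 and 198 CPM in Soft. Hairpin 1 was above Control and hairpins 2 and 3 were below it. Each Soft library was below each Control library, but at -0.69 ± 0.34 SE the difference did not pass the threshold (adjusted p = 0.12). In the fit of Control and Soft alone its adjusted p was 1.8e-08, and without hairpin 1 the value in sh_PIP4K2B was -0.77 with an adjusted p of 0.0025.

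MEG3, on chromosome 14, was at 135, 136 and 133 CPM in Control, at 82.2, 110 and 290 CPM in sh_PIP4K2B and at 101, 112 and 111 CPM in Soft. Hairpin 3 was the highest library of all and hairpin 1 the lowest, and the adjusted p-values were 0.67 in sh_PIP4K2B and 0.53 in Soft. Each Soft library of MEG3 was below each Control library. In the edgeR fit of Control and Soft alone, where 70.7% of genes tested passed, its adjusted p was 9.7e-06. PVT1 was at 4.28, 4.48 and 4.28 CPM in Control, at 5.66, 5.64 and 12.8 CPM in sh_PIP4K2B and at 2.14, 2.00 and 2.55 CPM in Soft. All hairpin libraries were above Control and all Soft libraries below it. Neither difference passed the threshold (log2 0.88 ± 0.31, adjusted p = 0.077, and -0.96 ± 0.32, adjusted p = 0.034), but the direct comparison of Soft with sh_PIP4K2B did (log2 -1.84 ± 0.32 SE, adjusted p = 0.0015). In the edgeR fit of Control and Soft alone the adjusted p of PVT1 was 2.8e-05. Among these 6 genes the median SD of log2 CPM was 0.8 in sh_PIP4K2B, against 0.088 in Control and 0.11 in Soft.

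**Figure D3:**
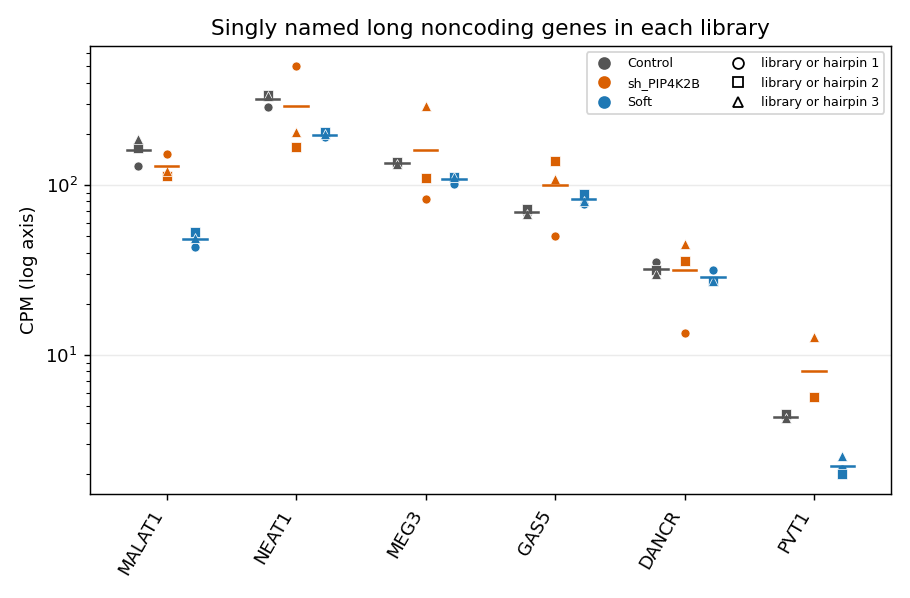
CPM on a log axis (vertical) of MALAT1, NEAT1, MEG3, GAS5, DANCR and PVT1 (horizontal axis) in each of the 9 libraries, with colours for conditions, symbols for libraries or hairpins and a line at the condition mean. MALAT1 in Soft lies at 43.2 to 53 CPM, below all other libraries, and the hairpin libraries spread widely for NEAT1, MEG3, GAS5 and DANCR.

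Among the 43 LINC genes, none passed the threshold in sh_PIP4K2B by edgeR, with 12 at an unadjusted p under 0.05 and a median log2 fold change of 0.13. In Soft, 5 were higher and 4 lower with a median of -0.14, and in Soft against sh_PIP4K2B, 3 were higher and 4 lower. LINC00152, now CYTOR, a cytoplasmic RNA often raised in tumours, was at 39.2, 37 and 36.7 CPM in Control, at 15.6, 32.8 and 33.3 CPM in sh_PIP4K2B and at 12.6, 13 and 12 CPM in Soft. All hairpin libraries were below Control, hairpin 1 furthest, and the Soft libraries were below all of them. It was 3.00-fold lower in Soft (log2 -1.59 ± 0.25 SE, adjusted p = 8.2e-04) and -0.47 ± 0.24 in sh_PIP4K2B (adjusted p = 0.21). Of its 75-base stretches 60.3% also occur in another gene, MIR4435-2HG sharing most, so reads may have been split between the 2 copies.

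LINC01279 was matched through an older symbol to the protein-coding gene CCDC80, whose product is a secreted matrix protein. LINC01279 was at 81.5, 78.5 and 83.1 CPM in Control, at 43.4, 62.8 and 77.9 CPM in sh_PIP4K2B and at 33.1, 29.7 and 33.8 CPM in Soft. It fell 2.52-fold in Soft (log2 -1.33 ± 0.19 SE, adjusted p = 4.4e-04). LINC00472 was at 6.85, 8.29 and 8.70 CPM in Control, at 5.89, 13.6 and 11 CPM in sh_PIP4K2B and at 3.33, 3.14 and 3.71 CPM in Soft, where it was 2.34-fold lower (log2 -1.23 ± 0.28, adjusted p = 0.0059). LINC01128 was the other LINC gene that fell, from 14.3 to 15.3 CPM in Control to 9.17 to 9.97 CPM in Soft (log2 -0.65 ± 0.14, adjusted p = 0.0043).

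The LINC genes that rose in Soft were LINC01137, LINC00673, LINC00847, LINC01521 and LINC00963. LINC01137 was at 2.61, 2.72 and 3.28 CPM in Control, at 1.52, 3.81 and 2.77 CPM in sh_PIP4K2B and at 7.66, 7.86 and 7.42 CPM in Soft. Its Soft libraries were above all others, 2.66-fold over Control (log2 1.41 ± 0.28 SE, adjusted p = 0.0028). LINC00673 was at 8.43, 10.8 and 10.4 CPM in Control, at 4.70, 11.7 and 6.72 CPM in sh_PIP4K2B and at 20.8, 20.6 and 22 CPM in Soft (log2 1.09 ± 0.27, adjusted p = 0.0096). LINC00847 was at 4.28, 4.92 and 5.24 CPM in Control and at 10, 10 and 9.52 CPM in Soft (log2 1.03 ± 0.15, adjusted p = 5.1e-04). LINC01521 was at 3.71 to 4.04 CPM in Control, at 5.35 to 6.38 CPM in sh_PIP4K2B and at 6 to 6.89 CPM in Soft. Both other conditions were above Control, but for LINC01521 only Soft passed the threshold (log2 0.76 ± 0.14, adjusted p = 0.0023, and 0.59 ± 0.14, adjusted p = 0.023, in sh_PIP4K2B), and Soft against sh_PIP4K2B had an adjusted p of 0.37.

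The 115 -AS1 genes had 1 higher and 2 lower in sh_PIP4K2B with a median of 0.01, 15 higher and 11 lower in Soft with a median of 0.07, and 15 higher and 9 lower in Soft against sh_PIP4K2B. Without the single-condition genes, 108 were left, 11 higher and 11 lower in Soft and 11 higher and 9 lower in Soft against sh_PIP4K2B. EPB41L4A-AS1 was at 9.31, 10.8 and 9.39 CPM in Control, at 16.6, 17 and 15.9 CPM in sh_PIP4K2B and at 13, 13 and 12.2 CPM in Soft. All hairpin libraries were above every other library, and it was 1.68-fold higher than Control (log2 0.75 ± 0.11 SE, adjusted p = 0.0033). In Soft it was 0.38 ± 0.11 (adjusted p = 0.022). Of its length 62.7% is overlapped on the opposite strand, and its partner EPB41L4A, which shares most, was at 3.26 to 3.34 CPM in Control and at 2.21 to 3.95 CPM in sh_PIP4K2B (adjusted p = 0.70).

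TMPO-AS1, antisense to TMPO, the gene of the nuclear lamina protein LAP2, was at 10.3, 8.38 and 8.96 CPM in Control, at 5.76, 4.87 and 3.91 CPM in sh_PIP4K2B and at 6.70, 6 and 6.12 CPM in Soft. It was 1.90-fold lower in sh_PIP4K2B (log2 -0.93 ± 0.17 SE, adjusted p = 0.0079) and -0.56 ± 0.17 in Soft (adjusted p = 0.023). TMPO itself was lower in both, at 85.8, 97.2 and 89.2 CPM in sh_PIP4K2B and at 90.6, 84.6 and 86.3 CPM in Soft, against 132, 134 and 142 CPM in Control (log2 -0.59 and -0.65, adjusted p = 0.0040 and 5.3e-04). The proliferation genes MKI67 and TOP2A were also lower in sh_PIP4K2B (log2 -1.09 and -0.95, adjusted p = 0.0024 and 0.0022). PCNA did not pass the threshold there (log2 0.15, adjusted p = 0.68), and the part of cell cycle phase in these values was not tested. EMC3-AS1 was at 10, 9.52 and 9.92 CPM in Control, at 5.39, 5.15 and 6.62 CPM in sh_PIP4K2B and at 4.65, 5.52 and 4.96 CPM in Soft. Both other conditions were below Control and overlapped each other (log2 -0.78 ± 0.15, adjusted p = 0.0084, and -0.96 ± 0.15, adjusted p = 7.1e-04), while its partner EMC3, of the membrane protein insertion complex, did not pass in either (adjusted p = 0.34 and 0.033). Of the canonical transcript of EMC3-AS1 26.2% is overlapped on the same strand. Of its 75-base stretches 18.9% also occur in another gene, FANCD2 sharing most.

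The 3 calls in sh_PIP4K2B depend on the fit. The log2 fold changes of EPB41L4A-AS1, TMPO-AS1 and EMC3-AS1 stayed within 0.71 to 0.84, -1.07 to -0.80 and -0.90 to -0.68 over 17 fits, the reported one included. The adjusted p reached 0.037, 0.051 and 0.051, and it missed the threshold in 8, 9 and 10 of these fits, including each fit that left out a Control or a Soft library.

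Of the 181 genes, the largest changes in Soft were those of -AS1 genes. ZMIZ1-AS1, on chromosome 10 (78943328 to 79067895, minus strand), was at 2.42, 2.06 and 2.36 CPM in Control, at 1.84, 3.03 and 5.83 CPM in sh_PIP4K2B and at 20.1, 21.7 and 20.5 CPM in Soft. Soft was 9.09-fold over Control (log2 3.18 ± 0.34 SE, adjusted p = 1.1e-04), with every Soft library above every other. Its partner ZMIZ1, a transcriptional coregulator, was at 195, 186 and 186 CPM in Control and at 713, 786 and 756 CPM in Soft (log2 1.99, adjusted p = 0.0016), and hairpin 1 had 94.8 CPM against 297 and 293 CPM for hairpins 2 and 3. The canonical transcript of ZMIZ1-AS1 shares no exon with another gene.

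CD27-AS1 and PSMB8-AS1 are in the list through Soft, where they are high, so their values are given as description only. CD27-AS1 was at 0.978, 1.27 and 0.961 CPM in Control, at 1.52, 1.45 and 0.84 CPM in sh_PIP4K2B and at 4.38, 4.95 and 5.99 CPM in Soft (log2 2.25), and its partner CD27 was not tested. PSMB8-AS1, in the antigen processing cluster of chromosome 6, was at 1.68, 1.27 and 1.49 CPM in Control, at 1.89, 1.93 and 1.04 CPM in sh_PIP4K2B and at 7.02, 6.43 and 7.38 CPM in Soft (log2 2.23). PSMB8, a subunit of the immunoproteasome, rose from 33.1 to 34.3 CPM to 66.6 to 72.8 CPM (log2 1.05, adjusted p = 9.2e-05), and 36.9% of the 75-base stretches of PSMB8-AS1 also occur in another gene, TAP1 sharing most. ZNF436-AS1 was at 1.72, 1.97 and 1.49 CPM in Control, at 3.59, 3.61 and 2.18 CPM in sh_PIP4K2B and at 4.29, 4.81 and 5.54 CPM in Soft (log2 1.49 ± 0.24 SE, adjusted p = 9.8e-04). ZNF436 rose in both conditions (log2 0.95 and 1.72, adjusted p = 0.0053 and 5.7e-05), whereas ZNF436-AS1 in sh_PIP4K2B was 0.85 ± 0.24 with an adjusted p of 0.041.

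RGMB-AS1, on chromosome 5 (98769618 to 98773469, minus strand), fell furthest in Soft. It was at 8.15, 7.33 and 6.90 CPM in Control, at 4.14, 5.97 and 7.22 CPM in sh_PIP4K2B and at 1.23, 1.57 and 1.12 CPM in Soft, 5.70-fold below Control (log2 -2.51 ± 0.24 SE, adjusted p = 6.4e-05). RGMB, a coreceptor for bone morphogenetic proteins, went with it, from 309, 309 and 311 CPM in Control to 55.7, 62.8 and 60.4 CPM in Soft (log2 -2.38, adjusted p = 1.4e-04). In sh_PIP4K2B the hairpins gave 128, 231 and 311 CPM of RGMB, and the libraries stood in the same order for RGMB-AS1. TRHDE-AS1 and its partner TRHDE, an enzyme that degrades thyrotropin-releasing hormone, were both lower in Soft (log2 -1.32 ± 0.23, adjusted p = 0.0014, and -1.42, adjusted p = 6.6e-05).

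SAP30L-AS1 and its partner moved in opposite directions. SAP30L-AS1 was at 8.06, 10.6 and 10.6 CPM in Control, at 5.11, 8.48 and 2.92 CPM in sh_PIP4K2B and at 1.82, 1.95 and 1.48 CPM in Soft (5.57-fold lower, log2 -2.48 ± 0.35 SE, adjusted p = 4.9e-04). SAP30L, a subunit of a histone deacetylase complex, was at 20, 20.1 and 19.6 CPM in Control and at 42, 41 and 41 CPM in Soft (log2 1.05, adjusted p = 0.0026). SVIL-AS1 fell from 42.4, 40 and 39.5 CPM to 22.5, 21 and 23 CPM (log2 -0.87 ± 0.13, adjusted p = 5.5e-04), while SVIL, which encodes the actin-binding protein supervillin, rose from 93.4, 90.3 and 88.9 CPM to 445, 449 and 435 CPM (log2 2.29, adjusted p = 1.2e-05). FUT8-AS1 was lower in Soft (log2 -1.24 ± 0.24, adjusted p = 0.0027) beside a FUT8 that did not pass the threshold (-0.10, adjusted p = 0.54), and 54.2% of FUT8-AS1 is overlapped by another gene on the opposite strand.

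Over the class, 109 of the 115 partners were tested. In Soft, 23 -AS1 genes past the threshold had a tested partner, and 13 of these partners passed too, 10 in the same direction and 3, those of SAP30L-AS1, SVIL-AS1 and NUTM2B-AS1, in the opposite direction. The other 10 partners did not pass. The 10 in the same direction include those of PSMB8-AS1 and H1FX-AS1. In sh_PIP4K2B 1 of the 3 partners passed (TMPO, in the same direction). In Soft against sh_PIP4K2B 12 of 21 passed, all in the same direction as the antisense gene. Of all genes tested, 30.6% passed in Soft, 5.54% in sh_PIP4K2B and 30.0% in Soft against sh_PIP4K2B. Partners of the -AS1 genes that did not pass were not counted. Without knowing that strand was used in counting, reads of an overlapping partner cannot be told apart from those of the -AS1 gene.

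**Figure D4:**
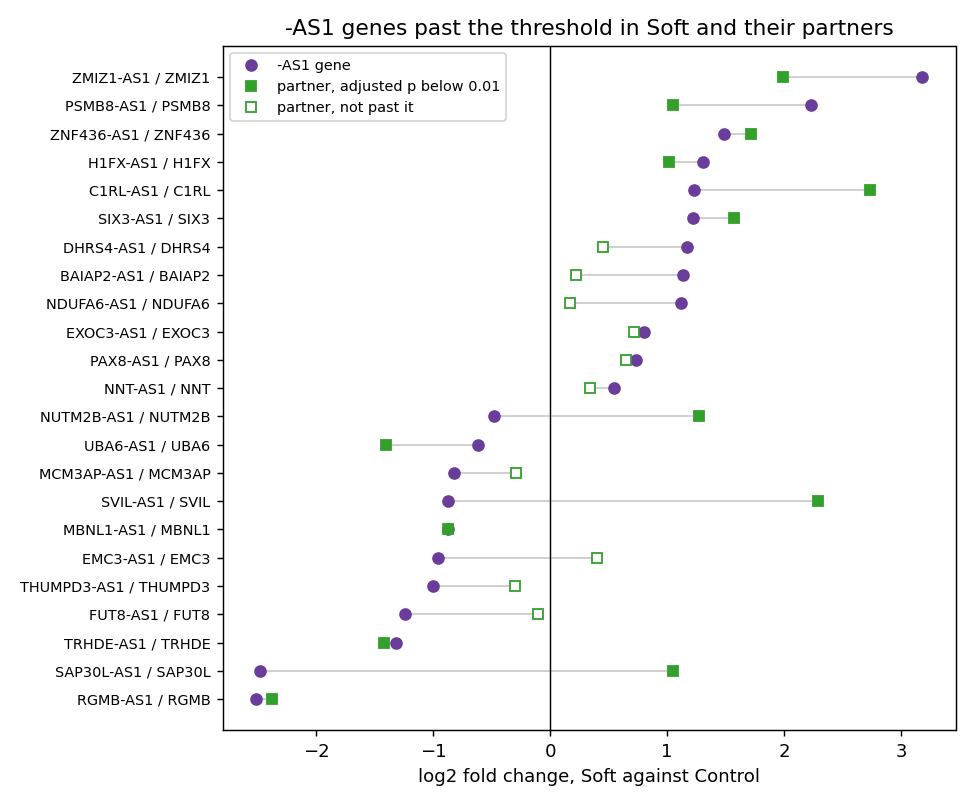
Log2 fold change in Soft against Control (horizontal axis) of the 23 -AS1 genes past the threshold with a tested partner (circles) and of the partner (squares, filled where past the threshold), 1 row a pair. Filled squares lie on the side of the circle in 10 rows and on the other side of 0 in 3.

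Lists of genes that act with these RNAs were read in the same fits. Of all genes tested, 15.8% were higher and 14.8% lower in Soft, and in sh_PIP4K2B 33.2% had an unadjusted p under 0.05. Of 18 proteins of the C/D and H/ACA snoRNPs, the particles that hosts supply with RNA, 8 were lower and 1 higher in Soft with a median of -0.66. The lower ones included NOP56 and NOP58, which are among the core proteins of the C/D particle (200 ± 2.76 to 105 ± 4.75 CPM and 95.8 ± 3.05 to 48.2 ± 0.97 CPM, mean ± SD, n = 3, adjusted p = 1.2e-04 and 2.3e-04 by edgeR), and DKC1, the pseudouridine synthase of the H/ACA particle (99.8 ± 2.04 to 57.1 ± 2.06 CPM, adjusted p = 1.9e-04 by edgeR). The 9 that did not pass included FBL (log2 -0.04, adjusted p = 0.87), NHP2 (-0.33, 0.17) and NOP10 (-0.40, 0.013). PIH1D1, an assembly factor, was the higher one (log2 0.53, adjusted p = 0.0079). In sh_PIP4K2B none of the 18 passed by edgeR, with 7 at an unadjusted p under 0.05 and a median of -0.12.

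Of 20 genes of RNA polymerase I and ribosomal RNA processing, 10 were lower and 1 higher in Soft with a median of -0.66. POLR1E (log2 -1.43 ± 0.20 SE), BOP1 (-1.25 ± 0.15), NOP2 (-1.16 ± 0.15) and UTP20 (-1.05 ± 0.13) fell most, and UBTF, the polymerase I transcription factor, rose (0.46 ± 0.10, adjusted p = 0.0039). In sh_PIP4K2B 1 of the 20 passed, BOP1 with -0.78 (adjusted p = 0.0096), and the median was -0.03. Of 37 tested protein-coding snoRNA hosts on a list written by hand, 9 were lower and 2 higher in Soft with a median of -0.14. That was 29.7% past the threshold, near the 30.6% of all genes tested. WDR43 (-1.47), HSPA9 (-0.75) and NCL (-0.68) were among the lower ones, and EIF4A2 (0.56) and CHD4 (0.67) were the higher. In the same comparison PCNA was lower (log2 -0.89, adjusted p = 0.0089), while MKI67 and TOP2A did not pass the threshold (adjusted p = 0.13 and 0.47).

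Factors of nonsense-mediated decay, which degrades many spliced host transcripts, had 1 higher (SMG6, log2 0.39) and 2 lower (SMG1, -0.45, and DHX34, -0.62) of 17 in Soft, with a median of -0.07. Paraspeckle proteins had 2 lower of 15 in Soft, RBM12 (-0.81) among them, with a median of -0.10. Nuclear speckle proteins had 1 higher of 14, ACIN1 (0.47), and 2 lower, the splicing factors SRSF3 (-0.52) and SRSF7 (-0.58), with a median of -0.02. The shares of these 3 lists past the threshold in Soft were 17.6%, 13.3% and 21.4%, each under the 30.6% of all genes tested. None of these 3 lists had a gene past the threshold in sh_PIP4K2B by edgeR, with 5, 7 and 5 genes at an unadjusted p under 0.05.

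**Figure D5:**
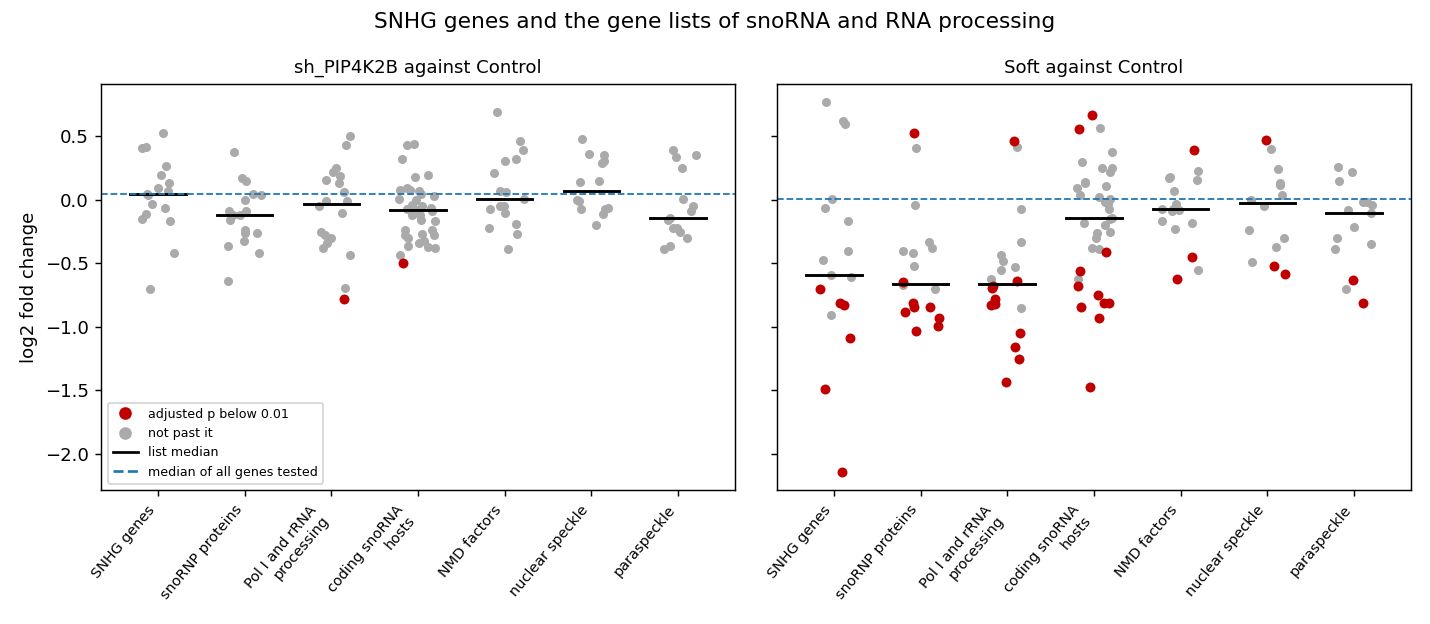
Log2 fold change (vertical axis) of the 17 SNHG genes and of the genes of 6 lists (horizontal axis) in sh_PIP4K2B (left) and Soft (right) against Control, with red points past the threshold, black lines at list medians and a dashed line at the median of all genes tested. In Soft the medians of the snoRNP and polymerase I lists lie at -0.66 and that of the SNHG genes at -0.59.

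Of 11 genes near H19 and MEG3, 5 were tested. In Soft, PHLDA2 was lower (84.9 to 39.2 CPM, log2 -1.11 ± 0.15 SE, adjusted p = 4.0e-04), while SLC22A18 (1.63 to 11 CPM, log2 2.76 ± 0.43, adjusted p = 8.2e-04) and the growth inhibitor CDKN1C (0.181 to 3.35 CPM, log2 4.18 ± 0.38, adjusted p = 5.1e-05) were higher, the Control level of CDKN1C being close to the floor. PHLDA2 was also lower in sh_PIP4K2B (-0.86, adjusted p = 0.0067). Of 9 HOX genes beside HOTAIR and HOTAIRM1, 2 were tested and HOXA3 was higher in Soft (0.459 to 2.85 CPM, log2 2.61 ± 0.39, adjusted p = 6.0e-04).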

How the data were processed

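The 9 libraries of hTERT_RPE1 cells, 3 a condition, came from a stranded mRNA kit. The authors aligned reads to GRCh38/hg38 and deposited 1 table of estimated counts by gene symbol and library, with no normalisation, and their processing notes name STAR and Salmon. The counting tool's role, its annotation and its strand setting are not given in the sources used here. Of the deposited estimated counts 12.3% were not whole, and all were rounded.

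All 13784 genes that passed filterByExpr were fitted once over the 9 libraries (edgeR 4.0.16 in R 4.3.3, TMM, quasi-likelihood F test, Benjamini-Hochberg, threshold 0.01). CPM use TMM library sizes, and standard errors come from the F statistic. The script was tested on simulated data. Members and lists were chosen with earlier results of these data known. The snoRNA host class, the lists of other hosts and long noncoding genes and the cell cycle markers were added after calls were seen, and the companion lists were written by hand from general knowledge.

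Named genes were the single names, all SNHG genes, of the LINC and -AS1 genes past the threshold the 4 highest and 4 lowest log2 fold changes against Control, their partners, and list genes past it. Any other gene named was chosen after its values were seen. Positions and lengths are those of GENCODE 44 (GRCh38), start sequences those of RefSeq (GRCh38.p14). Each stretch of 75 bases was compared with transcripts of all other annotated genes. Alternatives were no filter, at least 10 counts in every library, 2 other scalings, DESeq2 1.42.0, fits of 2 conditions, a replicate block, leaving out each library, thresholds of 0.05 and 0.001 and mean counts of 20 and 100. Intervals of counting error were not used, since errors are between libraries.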

Additional observations from a re-analysis of the deposited data

Results flagged for a closer look

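Genes were flagged that passed the threshold both in Soft against Control and in Soft against sh_PIP4K2B (edgeR) and had opposite signs. The signs are those of the fitted log2 fold changes in sh_PIP4K2B and in Soft against the shared Control libraries. Of the 181 genes 12 were flagged, and both passes belong to the choice and are not a result. Genes with opposite signs that missed either pass, such as PVT1 (0.88 and -0.96), are not among the 12. Opposite signs make the direct difference between Soft and sh_PIP4K2B larger than the difference of Soft against Control, so it is no separate support. The same count over all genes was not taken. In none of the 12 did sh_PIP4K2B itself pass, and its values lay between -0.65 (H1FX-AS1) and 0.36 (NUTM2B-AS1). Those of SNHG15 (0.09 ± 0.16 SE), SNHG16 (0.04 ± 0.19) and PAX8-AS1 (-0.04 ± 0.10) were smaller in size than their SE, so their signs are not settled. In Soft against sh_PIP4K2B, 5 were lower. SNHG15 was -1.58 (adjusted p = 1.2e-04), SNHG16 was -0.85 (adjusted p = 0.0053), LINC00472 was -1.58 (adjusted p = 0.0017), THUMPD3-AS1 was -1.31 and NUTM2B-AS1 was -0.84. The other 7 were higher. LINC00673 was 1.46 (adjusted p = 0.0025), LINC01137 was 1.50 (adjusted p = 0.0022), DHRS4-AS1 was 1.35, BAIAP2-AS1 was 1.25, PAX8-AS1 was 0.77 and NNT-AS1 was 0.66. H1FX-AS1 was 1.96, and it reached a mean count of 50 through Soft alone.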

How the results depend on the processing

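The counts of genes past the threshold moved with the fit. Among the 181, those in sh_PIP4K2B against Control (3) were 1 with scaling by library size only (4.84% of all genes tested), 7 with DESeq2 (15.0%), 0 in a fit of those 2 conditions (0.0375%), 0 with the replicate block (2.14%), 12 at a threshold of 0.05 (17.2%) and 0 at 0.001 (0.653%). Leaving out each library gave 0 to 16, the highest without hairpin 2 (8.84%, against 14.4% of all genes). Those in Soft against Control (42) were 115 in a fit of those 2 conditions (70.7% of all genes), 82 at 0.05 (47.1%), 21 at 0.001 (13.9%) and 24 to 74 on leaving out each library, the highest without hairpin 1 (45.6%) and the lowest without Control 3 (17.9%). Those in Soft against sh_PIP4K2B (42) were 19 in a fit of those 2 conditions (16.1%), 73 at 0.05 (46.2%), 15 at 0.001 (13.1%) and 20 to 59 on leaving out each library, the lowest without Soft 2 (17.1%) and the highest without hairpin 1 (38.4%). The cause was not tested, but fits with fewer libraries have fewer residual degrees of freedom, and fits without sh_PIP4K2B leave out its spread. Libraries with the same replicate number did not deviate together from their condition means (correlations -0.12 to 0.04). That does not settle whether samples were paired, and the titles of Control and Soft carry matching vector numbers. The replicate block gave 36 in Soft against Control (25.7% of all genes) and 36 in Soft against sh_PIP4K2B (24.4%).

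Scaling by library size only moved the median of all genes in Soft from 0.01 to 0.12 and that of the 181 from -0.04 to 0.07, and the upper quartile gave 0.02, so the sign of the median of the 181 is not settled. The SNHG genes past the threshold and lower in Soft were 5 to 10 under every other fit at 0.01. Those higher were 1 under library size scaling, 1 with DESeq2 and up to 3 otherwise. A minimum mean count of 20 gave 303 genes and of 100 gave 117. None of the 42 genes recomputed singly changed sign where past the threshold, and partners and list genes were not recomputed.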
